A study of Mus musculus with 4 samples.

Results

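The SOX3 chromatin immunoprecipitation (ChIP-seq) libraries of mouse testis had 778 sites in common. The 4 described here lay nearest to Nrarp (Notch), Tcf7 (Wnt), Jund (AP-1) and Esrra (nuclear receptors). Common peaks nearest to other genes of these systems, at larger distances, are given below. The 4 sites were taken from the authors' annotated table of common peaks by gene name, and each of the 4 genes had 1 row. The genes were chosen by measured values of these data, namely a peak in at least 2 lists, its class, its distance from the gene start and its score, so those values are a description and carry no test. SOX3 was precipitated from the testes of mice of the 129/SvJ strain at postnatal day 7 (3 ChIP samples, replicates 1 to 3), and 1 sample of input chromatin without antibody, from testis of the same strain and age, served as the authors' background. Per the labels' protocols, the mice came from crosses of a Sox3 null line with a mixed background onto 129/SvJ. No genotype is given for the single testes. The series' design text names 3 different testes and no source says whether each was from its own animal, so values over replicates show how testes differ. Whole testis was used, so a peak cannot be assigned to germ cells or somatic cells, and peak lists hold no expression values against which the tissue could be checked.

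SOX3 belongs to the SOX B1 group of transcription factors, which bind DNA through an HMG box and recognise short words built around ACAAT or ACAAAG. In the postnatal testis it is known from spermatogonia. Notch signalling releases the receptor's intracellular domain, which joins RBPJ and Mastermind proteins on target genes; Nrarp is such a target and encodes a small ankyrin repeat protein that feeds back to inhibit the pathway. Tcf7 encodes TCF1, a nuclear partner of beta-catenin in Wnt signalling, whose own HMG box is related to that of the SOX proteins. Jund encodes JunD, a subunit of the dimeric AP-1 factors. Esrra encodes the orphan nuclear receptor ERR alpha, known for the control of genes of mitochondrial energy metabolism.

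The sequence that goes with the strongest of the 4 peaks is the Nrarp promoter. If the RefSeq start is the one HOMER used, the Nrarp window, placed on HOMER's distance scale, lay wholly within the peak of every testis. The 250 bases before the start of Nrarp are given 5′ to 3′ on the gene's strand, from RefSeq in build GRCm38.p6 (chr2:25180508-25180757, plus strand), which is another build than the mm9 of the peaks. Capitals mark the SOX word ATTGT, which is ACAAT read from the other strand, 1 further base, and the octamer ATGCAAAT, the word bound by POU (OCT) proteins.
Nrarp: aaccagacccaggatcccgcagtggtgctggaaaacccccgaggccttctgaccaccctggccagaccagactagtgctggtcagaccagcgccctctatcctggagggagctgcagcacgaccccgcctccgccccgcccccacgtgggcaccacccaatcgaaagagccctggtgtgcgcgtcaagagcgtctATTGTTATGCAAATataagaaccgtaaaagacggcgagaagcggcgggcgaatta

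SOX B1 and POU proteins are known to bind such adjoining words together on DNA. The marked stretch began 55 bases upstream of the start of Nrarp, and its octamer began 49 bases upstream. The TATA word TATAA began 42 bases upstream and shared its first base with the end of the octamer. The octamer, the TATA word and their join to the SOX word were looked for after this promoter had been read, so their presence supports nothing by itself.

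The joined word ATTGTNATGCAAAT, searched on both strands, was found in 6 of the 32851 promoters of 300 bases (250 before and 50 after a start) in the RefSeq table, which is 0.0183%. They belonged to 5 genes. Of these genes only Nrarp was named nearest to a common peak, at any distance. The stretches, each with up to 8 bases on either side and shown to compare the joined word, were these, with Exoc1 given for the first of its overlapping windows.
Nrarp: gagcgtctATTGTTATGCAAATataagaac
Exoc1: ttatcaATTGTAATGCAAATatctgata
Gm38966: tgttatgaATTGTGATGCAAATctgttttc
Pipox: gctcaattATTGTCATGCAAATggcgcctt
Gm34201: ggcctccgATTGTCATGCAAATcttaggct

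The 1 base between ATTGT and the octamer was set by the search and is no trait found in these promoters. With other spacings from 0 to 10 bases, the same pair of words in the same order was found in 0 to 3 promoters per spacing. The spacing of 1 base was read from the Nrarp promoter, which is among the 6, and Exoc1 was counted through overlapping windows. These counts therefore show no preferred spacing. The octamer alone was in 570 promoters (1.74%), and ACAAT on either strand in 10192 (31.0%). A word in a window is a match of letters and not a measured site.

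At Nrarp the common peak lay across the transcription start site (TSS), on chromosome 2 from 25035801 to 25036694 in mm9. HOMER, the annotation program, classed it as promoter-TSS of NM_025980 and gave its centre as 31 bp upstream. The authors' peak score, their own value per peak with a minimum of 40 in each list, was 689 in replicate 1, 757 in replicate 2 and 785 in replicate 3. All 3 testes were high: the peak ranked 17th of 2912, 12th of 2598 and 10th of 2734 peaks, and 99.4, 99.5 and 99.6% of the peaks of the list had a lower score. Among the 205 common peaks within 5000 bp of a TSS, it had the highest score in replicates 2 and 3 and the fifth highest in replicate 1.

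The Nrarp peaks of the 3 testes lay over each other, just upstream of the TSS. The strongest peak ran from 450 bp upstream to 236 bp downstream of the TSS in replicate 1, from 478 to 312 bp in replicate 2 and from 396 to 194 bp in replicate 3. Its midpoint lay 108, 82 and 100 bp upstream, a mean of 96.8 ± 12.9 bp upstream (SD, n = 3). The whole peak of replicate 3 (591 bp) was shared with the other testes, which was 74.7% of the stretch that the 3 peaks covered together. The deposited centre lies closer to the TSS because the common peak takes in a second, weak peak of replicate 1, with a score of 47.0, which began 3 bp after the strong one. If the RefSeq start is the one HOMER used, the joined SOX and octamer word falls within the peak of each testis.

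**Figure D1:**
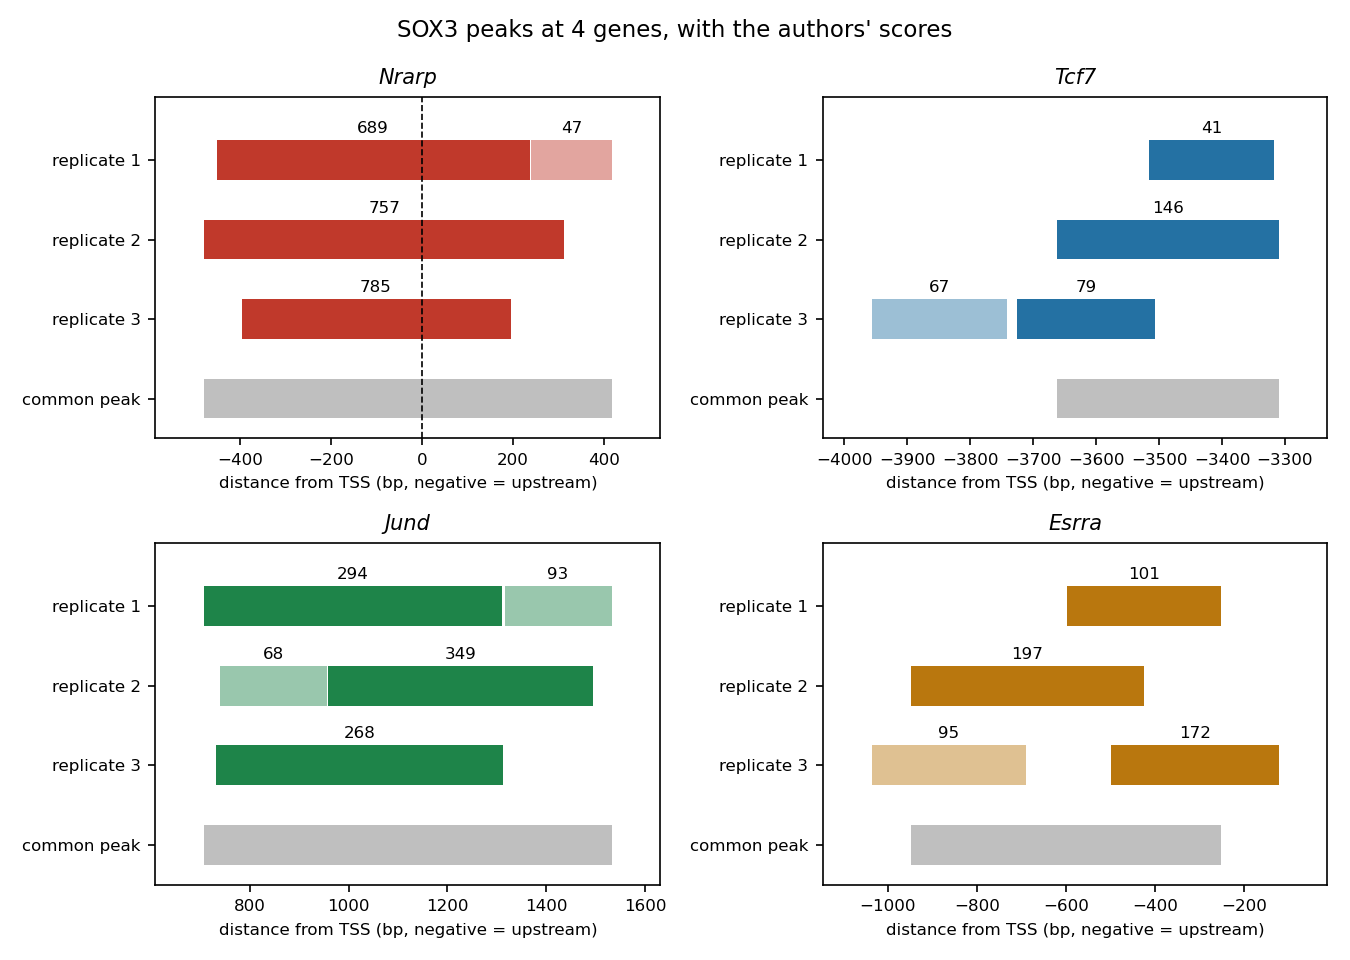
Outlines of the SOX3 peaks at Nrarp, Tcf7, Jund and Esrra in each of the 3 testes and of the deposited common peak (grey), against the distance from the TSS in bp (dashed line where the TSS is in view). Numbers are the authors' scores, and pale bars are weaker peaks of the same list. The Nrarp peaks of the 3 testes lie over each other, while those of Tcf7 share 9 bp and those of Esrra 75 bp.

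At Jund the common peak lay inside the transcribed region, not at the annotated start. It spanned chromosome 8 from 73222347 to 73223170, its centre was 1120 bp downstream of the TSS of NM_010592, and HOMER placed it in the 5′ UTR of a second transcript, NM_001286944, in exon 1 of 1. The scores were 294, 349 and 268 in replicates 1, 2 and 3, at ranks 47, 34 and 44. The 3 testes were thus alike in rank, each with at least 98.4% of its list below the Jund peak. Jund was the 13th of the 205 common peaks near a TSS by its highest score.

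The Jund signal was divided differently in the lists. Replicate 1 had the strong peak first and a second one, with a score of 92.9, after a gap of 5 bp; replicate 2 had the weaker peak first, with a score of 68.4, and the strong one after a gap of 1 bp; replicate 3 had a single peak. The midpoint of the strongest peak lay 1010, 1226 and 1022 bp downstream, a mean of 1085.8 ± 121.5 bp (SD, n = 3). A stretch of 353 bp, 44.9% of the total, was in the strongest peak of all testes. Of the common peaks that each list reached, 2.74, 3.82 and 6.58% held more than 1 peak of replicates 1, 2 and 3. Among the 4 genes this was so for Nrarp and Jund in replicate 1, for Jund in replicate 2 and for Esrra in replicate 3.

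At Esrra the peak lay upstream of the start, on chromosome 19 from 6996551 to 6997247, with its centre 601 bp upstream of NM_007953, and it was classed as promoter-TSS. Its scores were 101 in replicate 1, 197 in replicate 2 and 172 in replicate 3, at ranks 222, 75 and 84. Replicate 1 was the lowest of the testes by score and rank, with 92.4% of its list below the peak against 97.1 and 96.9%. The strongest peaks had midpoints 426, 688 and 312 bp upstream, a mean of 475.0 ± 192.7 bp (SD, n = 3), and shared 75 bp, which was 9.07% of their total stretch. In replicate 3 a second peak, with a score of 95.4, stood 190 bp further upstream, and its far edge at 1037 bp upstream lay outside the common peak, whose edges were those of replicates 1 and 2.

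Esrra was the only one of the 4 genes with another common peak in the neighbourhood. That peak, named after Gpr137, a gene for an orphan receptor-like membrane protein, began 18.5 kb from the Esrra peak and scored 318, 259 and 178 in replicates 1, 2 and 3. It outscored the Esrra peak in each testis. The nearest other common peaks stood 2591.9 kb from Nrarp, 1908.4 kb from Tcf7 and 4723.3 kb from Jund, where the median over all common peaks was 519.9 kb. In the RefSeq table the next protein-coding gene upstream of Esrra is Catsperz, a gene of the sperm calcium channel, on the same strand, and the next downstream is Trmt112, a methyltransferase partner. Neither had a common peak assigned to it.

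The Tcf7 peak was the weakest of the 4 in each testis, its rank differed most between testes and its outlines shared the shortest stretch, although the midpoints at Jund and Esrra were further spread. It was intergenic, on chromosome 11 from 52099826 to 52100178, with its centre 3486 bp upstream of NM_001313981. The scores were 41.3 in replicate 1, 146 in replicate 2 and 79.0 in replicate 3. Replicate 1 stood at the bottom of its list, at rank 2618 of 2912 with 10.1% of peaks below it, while replicate 2 was at rank 111 and replicate 3 at rank 301, with 95.7 and 89.0% below. The midpoints lay 3417, 3486 and 3616 bp upstream, a mean of 3506.5 ± 101.3 bp (SD, n = 3).

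The outlines of the Tcf7 peaks shared only 9 bp, from 52100024 to 52100032, or 2.16% of the stretch they covered together. The common peak had the edges of the peak of replicate 2 alone. Replicate 3 had a further peak with a score of 66.6 that began 80 bp beyond the common peak and overlapped no other list. In replicate 1 the presence of Tcf7 rested on a peak close to the authors' minimum score. Over the 233 common peaks found in all lists, the stretch shared by the strongest peaks had a median of 55.2% of the total, and 14 shared none. The share was smaller than at Tcf7 in 7.30% of them, smaller than at Esrra in 11.6%, than at Jund in 38.6% and than at Nrarp in 77.7%.

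**Figure D2:**
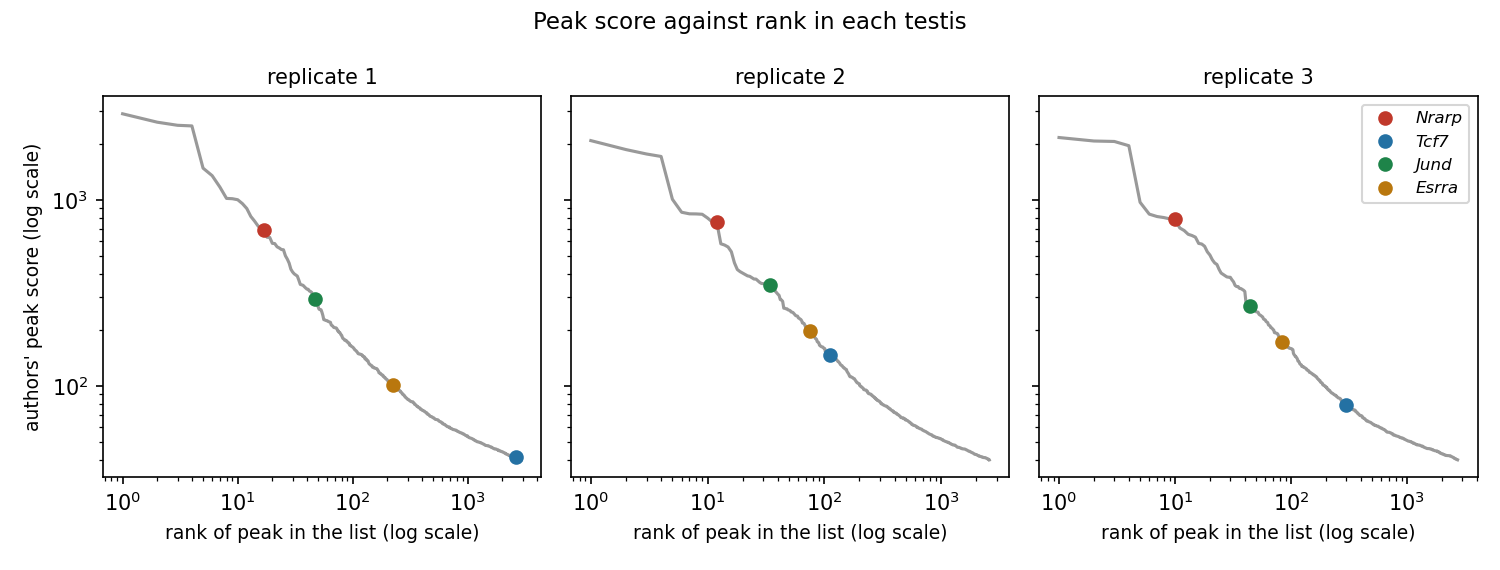
The authors' peak score against the rank of the peak in each testis, both on log scales, with the strongest peak at each of the 4 genes as a coloured point on the grey curve of all peaks. Nrarp (ranks 17, 12 and 10) and Jund (47, 34 and 44) keep their place in the 3 testes, and Tcf7 moves from rank 2618 in replicate 1 to rank 111 in replicate 2.

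All 4 peaks overlapped a peak in each of the 3 lists, against 29.9% of all common peaks and 46.8% of the 205 within 5000 bp of a TSS. A score of 100 or more in every list was reached at Nrarp, Jund and Esrra, and by 10.7% of all common peaks. Esrra passed this cut narrowly, with 100.83 in replicate 1. The share of 10.7% is over all 778 common peaks and not over those near a TSS. The 4 genes were chosen by their presence in lists and their scores, so both contrasts only describe them. With a reciprocal overlap of 50%, only Nrarp and Jund were left in all 3 lists. The order of the strongest peaks was the same in replicates 2 and 3, from Nrarp through Jund and Esrra down to Tcf7, and replicate 1 had it too. The authors' scores are on no named scale, so the sizes of the gaps between genes were not compared across lists. Ranks by the highest score over the lists do mix the lists and hold only if these share a scale.

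**Figure D3:**
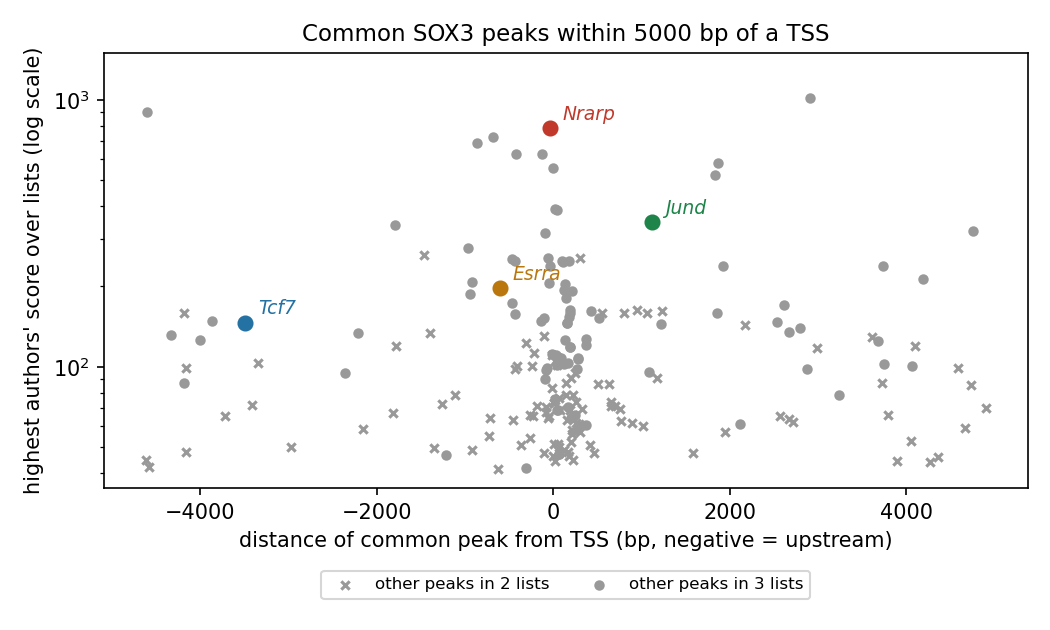
The highest authors' score over the 3 lists (log scale) against the distance from the TSS in bp for the 205 common peaks within 5000 bp of a TSS. Circles are peaks in all 3 lists and crosses peaks in 2, and the 4 genes are coloured: Nrarp is the third by highest score, Jund 13th, Esrra 33rd and Tcf7 57th. These ranks mix the lists and hold only if the lists share a scale.

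By the 3 scores, the peaks most like that of Nrarp were those of Eapp, a regulator of E2F (692, 526 and 583 in replicates 1, 2 and 3), and of Rnu11, an RNA of the minor spliceosome. Likeness was the Euclidean distance of log2 scores over the 3 lists, among 95 other common peaks near a TSS that were in all lists; it was 0.68 for Eapp and 1.13 for Rnu11. Both scored lower than the Nrarp peak in replicates 2 and 3. Jund was closest to Hist2h2aa1, a histone H2A gene (0.59), and Gpr137 (0.74). Esrra was closest to Hist2h3c1, a histone H3 gene (0.43), and Phf10, a chromatin remodelling subunit (0.52). Tcf7 was closest to Brd2, a reader of acetylated histones (0.52), and to Gm10791 (0.59). Brd2 scored 49.1, 152 and 57.5, like Tcf7 lowest in the first testis and highest in the second.

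Of the 211 other genes in the 5 lists, 0 were named nearest to a common peak that stood 5000 bp or less away. Only 0.712% of the protein-coding genes were so named. With so low a share, a count of 0 in lists of this size is no sign that SOX3 peaks avoid these genes. A gene close to a peak that was named after another gene was not counted. In the Notch list, from ligands and receptors to the Hes and Hey effectors, the count was 1 of 46 genes, Nrarp itself (2.17%, exact Clopper-Pearson 95% interval 0.055 to 11.5%). In the Wnt list it was 1 of 81, Tcf7 (1.23%, 0.0313 to 6.69%), with 0 for the Wnt ligands, the Frizzled receptors and the other TCF/LEF factors. The AP-1 list, with the Fos, Jun, Atf, Maf and Creb genes, had 1 of 30, Jund (3.33%, 0.0844 to 17.2%). The nuclear receptors had 1 of 49, Esrra (2.04%, 0.0517 to 10.9%). The coactivators and corepressors that work with ERR alpha, Ppargc1a among them, had 0 of 9 (0%, with an upper bound of 33.6% by the same exact interval; by the limit of 3 counts, 0 of 9 allows up to 33.3%). Since the Notch, Wnt, AP-1 and nuclear receptor lists each hold a gene picked for its peak, their counts say nothing about those lists, and the intervals cover counting error only.

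At any distance, which 2.52% of the protein-coding genes met, 3 of the 211 other genes in these lists were named nearest to a common peak. Mafk, a small Maf partner of larger AP-1 like factors, had a peak in its 3′ UTR, 10.5 kb downstream of the TSS on chromosome 5 from 140277689 to 140278199. It scored 48.3, 146 and 70.8 in the order of the replicates. Like Tcf7, Mafk had its lowest place in replicate 1 (rank 1398 of 2912) and its highest in replicate 2 (rank 112). Its score in replicate 1 was near the list median of 47.8, whereas Tcf7 stood at the bottom of that list. Axin2, a Wnt target that restrains the pathway, had an intergenic peak 91.5 kb downstream of its TSS, which scored 83.3 in replicate 1 and 52.3 in replicate 3 and was missing from replicate 2. Maml2, a Mastermind coactivator of Notch, had an intergenic peak 85.4 kb upstream, which scored 40.7 in replicate 2 and 57.1 in replicate 3 and was missing from replicate 1.

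The words tied to the 4 systems were found in few of the promoter windows of the genes themselves. ACAAT was found at Nrarp and at Jund, where it began 7 bases into the transcript, and ACAAAG at Jund (18.7% of all promoters). The RBPJ word TGGGAA was at Jund and not at Nrarp (25.6% of promoters), the AP-1 word TGACTCA at none of the 4 genes (5.20%), and AGGTCA, a word of nuclear receptors, at Tcf7 (16.3%). TGACG, a part of the cAMP response element, was at Nrarp (20.8%). The CCAAT box stood 94 bases upstream at Nrarp (37.4%), and GGGCGG, the GC box, at Nrarp, Tcf7 and Esrra (35.7%). These shares are per promoter. Per gene, over 142 genes with a common peak within 5000 bp, they were 59.9% for the GC box, 51.4% for CCAAT and 35.9% for TGACG. For the other words they were 35.9% for ACAAT, 22.5% for ACAAAG and for TGGGAA, 7.04% for AGGTCA and 3.52% for TGACTCA. The like shares per gene over all 27025 genes were 38.2% for the GC box, 41.1% for CCAAT and 23.0% for TGACG. Over the same genes, ACAAT had 34.4%, ACAAAG 21.0%, TGGGAA 28.3%, AGGTCA 18.1% and TGACTCA 5.95%. The difference between the 142 genes and all genes was not tested. All words were searched on both strands, and a missing word means only that these letters are not in the window.

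If the RefSeq starts are those HOMER used, the windows of Jund and Tcf7 do not lie under their peaks. At Esrra only the peak of replicate 3, whose near edge was 123 bp upstream, then reached into the window. The words of Jund and Tcf7 therefore describe the genes and not the places where SOX3 was measured. At Esrra the GC boxes, which began 240 and 157 bases upstream, fell within the peak of replicate 3 if the RefSeq start is the one HOMER used. The Nrarp window had a GC share of 60% and a CpG ratio (observed over expected) of 0.779, Esrra 66.0% and 0.781, and the 2 windows of Tcf7 76.3% and 1.03, and 64.3% and 0.548. Jund stood apart with 46.7% and 0.184. The medians were 52.7% and 0.384 over all promoters, and 59.3% and 0.781 over the 177 windows of genes with a common peak within 5000 bp.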

How the data were processed

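SOX3 ChIP-seq was analysed from 3 samples of mouse testis. Per the labels' protocols, fixation took 8 min in 1% formaldehyde and sonication 15 min, the antibody was a goat polyclonal to human SOX3, and the reads were 50 bp long and single-end. The aligner Bowtie2 2.0.0 and build mm9 come from the submitters' processing notes. The deposited peak lists, called per sample, give a position and the authors' score, whose scale no source names; peak names begin with MACS. How duplicate and multiply mapping reads were treated is likewise not stated in these sources. The common table was annotated with HOMER's annotatePeaks.pl, per the file headers, and its own peak score is 0 in all 778 rows. The input sample was not analysed here. Read depth is unknown; the lists hold 2912, 2598 and 2734 peaks.

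A common peak took the score of the strongest peak of a list that overlapped it by at least 1 bp. Replicate edges were set on HOMER's distance scale with the strand from the RefSeq table. Of the common peaks, 776 had a gene identifier in the RefSeq table of GRCm38.p6, which was used for names, neighbours and promoter sequences; the deposited coordinates are mm9. The members, the 5 gene lists and the words were chosen with earlier results of these data known. The genes named are the 4 members, list genes nearest to a common peak, the 2 peaks most like each member, and neighbours in the table; Gpr137 as a neighbouring peak, the genes with the joined word and those with the octamer were named after their values were seen. Overlap and word counts were tested on simulated data. No test across groups was run. Python 3.11.15, pandas 2.3.3, numpy 2.4.6, scipy 1.17.1 and matplotlib 3.10.9 were used.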

Additional observations from a re-analysis of the deposited data

How the results depend on the processing

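No paired analysis was possible because the ChIP samples form a single group and the results come from no test. Leaving out replicate 1, 2 or 3 left all 4 genes with a peak in both other lists, which follows from their presence in all 3 and is no check of stability. A 50% reciprocal overlap left 2 of the 4 peaks in all 3 lists and 0 nuclear receptors with a common peak near the TSS, since Esrra then had a peak in 1 list. With a score of at least 50 or 60, 3 peaks were in all lists; Tcf7 was lost from replicate 1. With a limit of 1000 bp from the TSS, 2 of the 4 genes counted, and the Wnt and AP-1 lists had 0. Without a distance limit, the Notch, Wnt and AP-1 lists had 2 genes each. Searched on the gene's strand only, the SOX word ACAAT was found at 1 of the 4 genes, the GC box at 1, and the cAMP response, RBPJ and nuclear receptor words at 0. Of 92 alternative values, 78 stayed within 1.5 times the reported one. They include the values without a replicate, which were fixed in advance. A fall from 3 lists to 2, as at Tcf7 with 50% reciprocal overlap or a score of at least 50 or 60, also counted as within that limit. The tally is thus no measure of stability. The read depth is unknown, so a gene without a common peak may hold signal below the authors' limit.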

Other observations

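The octamer ATGCAAAT, looked for after the Nrarp promoter had been read, was in a promoter window of 11 of the 142 genes that had an entry in the promoter table and a common peak no farther than 5000 bp from a TSS (7.75%), and of 532 of all 27025 genes (1.97%). No test was run on these shares. Beside Nrarp, the 11 included the histone genes H2ac20, H2bc1, H2bc12, H2bc14, H2bc3 and H3f3b, some of which stand close together and share sequence. The others were Gadd45g, a stress-induced gene, Alyref2, an mRNA export factor, Kansl1l and 2900060B14Rik. Nrarp alone of the 11 had ATTGT 1 base before the octamer. Its presence at Nrarp was fixed in advance, because the joined word and its spacing were read from that promoter. Only 6 of the 32851 promoters held the joined word, so its absence from the other genes says nothing about them.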
